A study of Homo sapiens with 30 samples.

Results

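The genes described here are 46 genes of the ATF4 and amino acid response pathway, given by name in a list drawn up with earlier results of these data known, although no measured value enters the rule; they are 46 of the 30373 genes in the deposited table, and each was found there. They comprise 7 transcription factors of the pathway, 7 enzymes of asparagine, serine and one-carbon metabolism, 6 enzymes of proline, glutamate, sulfur amino acid and phosphoenolpyruvate metabolism, 7 amino acid transporters, 13 genes for cytosolic tRNA synthetases and tRNA export, and 6 feedback and stress effectors. The study measured messenger RNA by RNA sequencing in human cancer cell lines treated with ML-792, which the labels also call ML00754792, an inhibitor of the SUMO activating enzyme (SAE), the enzyme that starts the attachment of the small protein SUMO to other proteins. Each of 10 groups held 3 libraries, 30 in all, and values are taken as FPKM, fragment counts divided by transcript length and library total, a unit that the file and labels do not name and that was inferred from the values. At 16 h the lines were MDAMB231, a breast cancer line, and the colorectal cancer lines COLO205 and HCT116, each given 500 nM ML-792 or 0.01% DMSO, the vehicle. At 3.5 h only HCT116 was used, with ML-792 or DMSO at the same concentrations, either with heat shock or without it. Heat shocked cells had 2 h of compound or vehicle, then 0.5 h at 43 °C and 1 h of recovery at 37 °C. Each line stands for 1 tumour, and the labels name no engineered allele in these cells. The labels call the 3 libraries of a group biological triplicates without saying how the cultures were separated. The p-values therefore measure the spread between libraries of a group, pooled over all groups fitted together.

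ATF4 is a transcription factor whose translation increases when the initiation factor eIF2alpha is phosphorylated, which happens during amino acid shortage, endoplasmic reticulum stress and other stresses. It binds, often with a C/EBP family partner, to composite sites in genes that make, import and charge amino acids. DDIT3, PPP1R15A, CHAC1, SESN2 and DDIT4 belong to the later arm of the same response, whose products include inhibitors of growth signalling and a phosphatase subunit that restores translation.

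The composite site is known as the C/EBP-ATF response element. It was searched here as TGATGNAA, or TTNCATCA when read on the opposite strand, in RefSeq promoter windows that run from 250 bases before to 50 bases after each gene start on GRCh38.p14. Windows were found for 38 of the 46 genes, and 15 of these, 39.5%, held the letters, against 4.46% of all 27305 genes with a window. The genes with a match were 7 of 11 tRNA synthetase or export genes, 4 of 7 transporters, 2 of 6 transcription factors, 1 of 4 serine and one-carbon genes, 1 of 6 effectors and 0 of 4 genes of the proline and sulfur group. A member often has several windows, and counted by window the shares were 25.4% of 59 member windows and 3.62% of all 35116 windows. The 8 stretches printed here, each 30 bases long on the gene's own strand with the matched letters in capitals, come from members described in the results. A match is a description of the sequence and not evidence of binding.
ASNS: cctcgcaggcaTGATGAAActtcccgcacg
SLC1A5: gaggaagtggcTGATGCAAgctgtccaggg
CEBPG: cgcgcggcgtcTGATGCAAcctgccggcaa
CHAC1: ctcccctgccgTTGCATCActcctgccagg
GARS: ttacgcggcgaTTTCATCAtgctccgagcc
AARS: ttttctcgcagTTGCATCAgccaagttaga
IARS: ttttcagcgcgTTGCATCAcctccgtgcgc
CARS: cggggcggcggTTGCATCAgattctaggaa
The ASNS stretch lies at chr7:97872458-97872487 on the minus strand, that of SLC1A5 at chr19:46784893-46784922 on the minus strand and that of CEBPG at chr19:33374060-33374089 on the plus strand, and these 3 matches read along the gene's strand. The CHAC1 match (chr15:40953251-40953280, plus strand), the GARS match (chr7:30594834-30594863, plus strand) and the AARS match (chr16:70289675-70289704, minus strand) read on the opposite strand. So do those of IARS (chr9:92293692-92293721, minus strand) and CARS (chr11:3057407-3057436, minus strand). The matches began 68 bases before the gene start in ASNS, 97 in SLC1A5, 42 in CEBPG, 209 in CHAC1, 33 in GARS, 187 in AARS, 13 in IARS and 2 in CARS.

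All libraries showed the markers of their labelled lines only in part. At 1 FPKM or more, MDAMB231 had 4 of 10 epithelial and intestinal markers, COLO205 had 8 and HCT116 had 6, lacking KRT20, CDX1, VIL1 and LGALS4. Of 6 mesenchymal markers MDAMB231 had 5, COLO205 had 1, and HCT116 had 5 in each group but the unshocked DMSO group of 3.5 h, which had 3; their summed level was 1114 to 1322 FPKM in MDAMB231 and 109 to 176 FPKM in HCT116. Blood and endothelial markers stayed below 1 FPKM. The summed fibroblast list, which COL1A1 leads, was 13.2 to 18.3 FPKM in heat shocked HCT116 and 1.54 to 1.69 FPKM in unshocked HCT116 at 3.5 h. Summed FPKM was 461422 to 524077 at 16 h, 608121 to 732251 in heat shocked libraries and 552951 to 575982 in unshocked libraries at 3.5 h. The files give no read counts, so the depth behind each value is unknown. From the steps between low values, a rough estimate of depth relative to 1 HCT116 DMSO library of 16 h was 0.811 to 1.04 at 16 h, 1.11 to 1.68 in heat shocked libraries and 1.45 to 2.20 in the unshocked 3.5 h libraries; only 7.33 to 18.5% of the genes used lay within 0.03 (log2) of it. The heat shocked libraries also bear sample identifiers from another number block than the unshocked ones, so that block and heat shock cannot be told apart. In bulk RNA, fewer cells expressing a gene and less RNA per cell cannot be told apart.

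In vehicle, the amino acid response genes were highest in COLO205. The median of the 46 genes was 29.3 FPKM in MDAMB231, 82.0 FPKM in COLO205 and 40.5 FPKM in HCT116, and 39 genes had their highest mean in COLO205, 3 in MDAMB231 and 4 in HCT116. The full order COLO205, HCT116, MDAMB231 held for 31 genes. The share of all genes with each order was not counted. ATF4 itself was 122, 124 and 121 FPKM in MDAMB231, 479, 487 and 505 FPKM in COLO205 and 369, 378 and 364 FPKM in HCT116. No pair of lines overlapped in ATF4. In COLO205 against HCT116, 37 of 45 tested members were higher and 4 lower by limma with Benjamini-Hochberg adjusted p under 0.05. Of all tested genes 84.9% passed, 39.4% higher and 45.5% lower. The median log2 difference, on the log2(FPKM + 1) scale used throughout, was 0.73 over these members and -0.06 over all genes. ATF4 differed by 0.40 ± 0.037 (SE). Lower in COLO205 than in HCT116 were STC2, a secreted glycoprotein gene, SLC38A2, ATF5 and PYCR1.

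The neutral amino acid transporter gene SLC1A4 had the largest rise among the members in COLO205 against HCT116, at 50.4, 54.1 and 54.3 FPKM in COLO205 and 2.11, 2.04 and 2.51 FPKM in HCT116. All 13 synthetase and export genes were higher in COLO205, with a median log2 difference of 0.52. So were 6 of 7 transporters, with a median of 1.67, where 39.4% of all genes were higher. MDAMB231 against HCT116 gave 8 members higher and 31 lower, with a member median of -0.56. There 83.6% of all genes were called, 38.1% higher and 45.5% lower. MDAMB231 against COLO205 gave 3 higher and 41 lower, with a member median of -1.44. There 86.4% of all genes were called, 41.9% higher and 44.5% lower. These 3 comparisons share libraries pairwise. The serine pathway stood lowest in MDAMB231: PHGDH, its first enzyme, was at 1.95, 1.71 and 1.799 FPKM in MDAMB231, 117, 129 and 130.1 FPKM in COLO205 and 62.004, 67.4 and 70.6 FPKM in HCT116. MTHFD2, the mitochondrial folate enzyme, was likewise lowest in MDAMB231, with 16.5, 14.4 and 15.6 FPKM in MDAMB231, 155, 159 and 157 FPKM in COLO205 and 155, 150.4 and 148 FPKM in HCT116. For PHGDH no lines overlapped, while for MTHFD2 no difference was called between COLO205 and HCT116 (log2 difference 0.052 ± 0.050). DDIT4, an inhibitor of mTORC1 signalling, did not follow that order, at 123, 129 and 136 FPKM in MDAMB231, 258, 324 and 312 FPKM in COLO205 and 39.5, 43.6 and 52.5 FPKM in HCT116. CBS in MDAMB231 and VLDLR in HCT116 were listed at 0 in vehicle, and no fold is given for them.

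**Figure D1:**
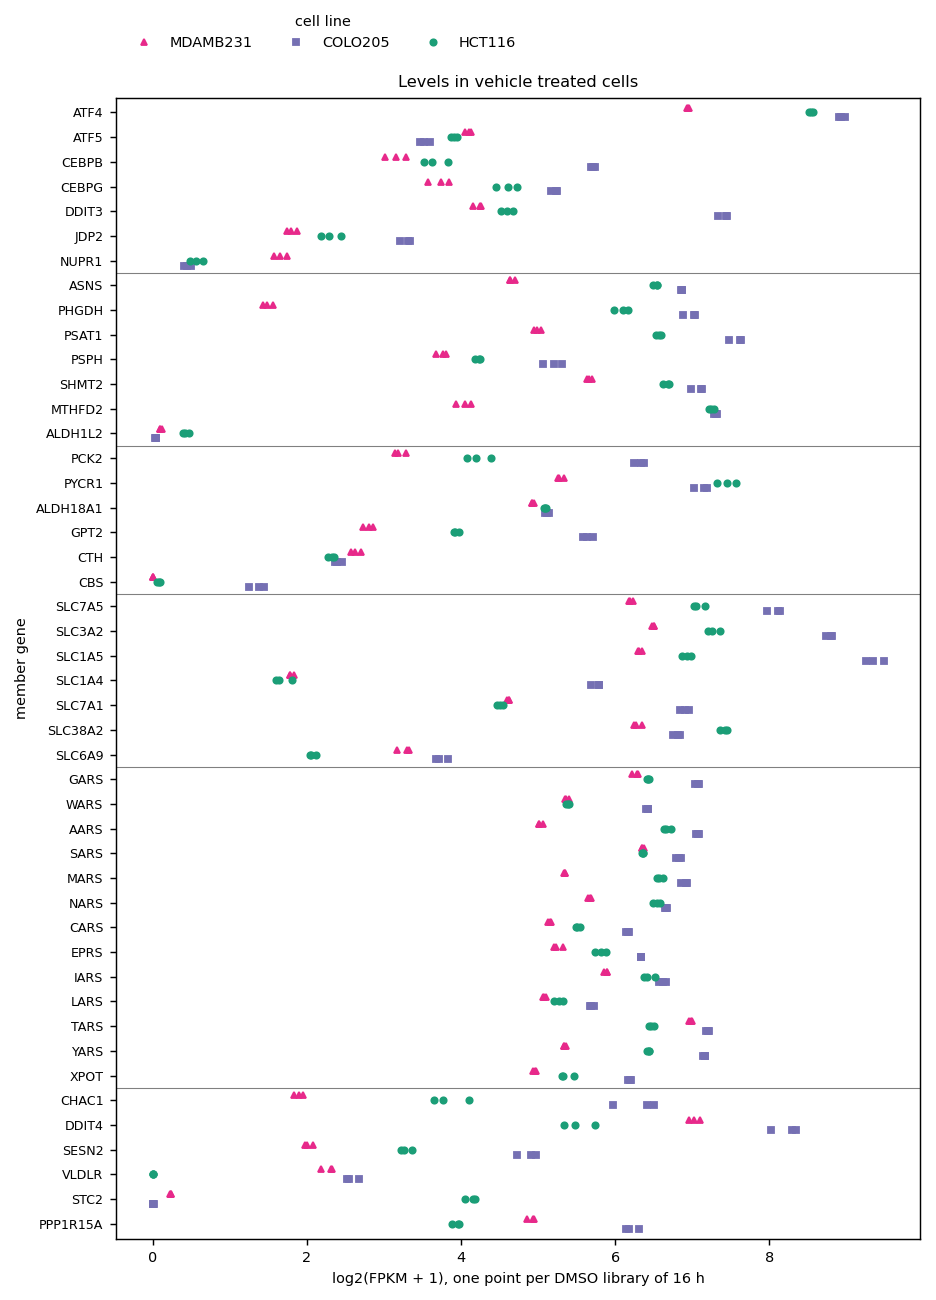
Levels of the 46 genes in the DMSO libraries of 16 h, as log2(FPKM + 1) on the x axis and genes grouped by role on the y axis; each point is 1 library of MDAMB231 (triangles), COLO205 (squares) or HCT116 (circles). COLO205 has the highest mean FPKM for 39 genes, though in some, such as MTHFD2 and ALDH18A1, its points overlap those of HCT116.

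ML-792 lowered most of these genes in COLO205 at 16 h. Of 45 tested members, 35 fell and 0 rose, where 37% of all 14251 genes were called, 19.4% higher and 17.7% lower. The median log2 difference was -0.33 over the members and 0.00 over all genes. In 38 members the 3 ML-792 libraries did not overlap the 3 DMSO libraries, as in 49% of all genes. ALDH1L2, a mitochondrial folate enzyme gene, was too low to be tested, at 0.1799, 0.1702 and 0.174 FPKM with ML-792 and 0.0337, 0.0247 and 0.0327 FPKM with DMSO.

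ATF4 was not among the genes that fell in COLO205. Its level was 473, 461 and 459 FPKM with ML-792 and 479, 487 and 505 FPKM with DMSO. All 3 ML-792 libraries lay just below the DMSO libraries, but the difference, log2 difference -0.078 ± 0.037, adjusted p = 0.11, did not pass. Of the 7 transcription factors, 2 fell: CEBPB, which encodes a C/EBP partner of ATF4 (log2 difference -0.33 ± 0.10, adjusted p = 0.019), and JDP2, which encodes a repressor of the AP-1 family (log2 difference -0.30 ± 0.074, adjusted p = 0.0044). DDIT3, the gene for the stress factor CHOP, was 216, 192 and 91.8 FPKM with ML-792 and 159.9, 173 and 173 FPKM with DMSO. Its ML-792 libraries lay on both sides of the DMSO libraries, library 3 far below them and the other two above, and no change was called (log2 difference -0.11 ± 0.21, adjusted p = 0.75).

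All 6 tested genes of asparagine, serine and one-carbon synthesis fell, with a median log2 difference of -0.50. ASNS, which makes asparagine, was 81.2, 81.8 and 59.6 FPKM with ML-792 and 115, 116 and 115 FPKM with DMSO. Every ML-792 library was below every DMSO library, and the difference was log2 difference -0.64 ± 0.090, adjusted p = 3.1e-05. PSAT1, the second enzyme of serine synthesis, was 126, 143 and 121 FPKM with ML-792 and 177, 196 and 197 FPKM with DMSO. These groups did not overlap either (log2 difference -0.55 ± 0.060, adjusted p = 1.8e-06). The remaining 4 were PHGDH and PSPH, which begin and end serine synthesis, and SHMT2 and MTHFD2 of the mitochondrial folate cycle, with log2 differences of -0.42, -0.55, -0.41 and -0.46.

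Of the 6 genes of proline, glutamate, sulfur and phosphoenolpyruvate metabolism, 5 fell, among them 3 of the largest falls. CTH, cystathionine gamma-lyase, which makes cysteine, was 1.502, 1.65 and 0.785 FPKM with ML-792 and 4.26, 4.48 and 4.14 FPKM with DMSO. The groups were well apart (log2 difference -1.22 ± 0.11, adjusted p = 1.2e-07). PCK2, the mitochondrial phosphoenolpyruvate carboxykinase, was 47.2, 44.3 and 27.7 FPKM with ML-792 and 74.4, 81.7 and 79.4 FPKM with DMSO. Its lowest ML-792 library was again library 3 (log2 difference -1.0 ± 0.14, adjusted p = 3.8e-05). GPT2, mitochondrial alanine aminotransferase, fell to 31.1, 33.4 and 27.3 FPKM with ML-792, against 46.7, 51.2 and 48.8 FPKM with DMSO (log2 difference -0.66 ± 0.063, adjusted p = 3.1e-07). PYCR1 of proline synthesis fell by 0.46 on the log2 scale, while ALDH18A1 of the same route was not called (log2 difference -0.099 ± 0.039). CBS, which precedes CTH in cysteine synthesis, was called with overlapping groups at 0.952, 1.58 and 1.21 FPKM with ML-792 and 1.38, 1.73 and 1.596 FPKM with DMSO.

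All 7 transporters fell, with a median log2 difference of -0.32. SLC6A9, a glycine transporter, was 6.91, 7.53 and 4.53 FPKM with ML-792 and 12.1, 13.3 and 11.8 FPKM with DMSO (log2 difference -0.89 ± 0.12, adjusted p = 1.7e-05). SLC7A1, a transporter of cationic amino acids, was 83.4, 85.7 and 70.9 FPKM with ML-792 and 114, 123 and 118 FPKM with DMSO (log2 difference -0.56 ± 0.054, adjusted p = 3.9e-07). In both genes every ML-792 library was below every DMSO library. SLC7A5 and SLC3A2, which together form the LAT1 exchanger, differed by -0.32 and -0.44, and the glutamine transporter SLC1A5 by -0.31, on the log2 scale. The fall of SLC38A2, -0.27 on that scale, lost its call in 7 of 13 other settings. SLC1A5 remained the most abundant member in COLO205, with 507, 543 and 538 FPKM in ML-792 and 607, 647 and 715 FPKM in DMSO libraries.

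Among the 13 synthetase and tRNA export genes, 11 fell, with a median log2 difference of -0.24 and none beyond -0.43. The 2 not called were AARS (log2 difference -0.021 ± 0.039) and TARS (-0.087 ± 0.042), for alanine and threonine. MARS, for methionine, was 90.8, 88.9 and 84.6 FPKM with ML-792 and 115, 120.2 and 121 FPKM with DMSO (log2 difference -0.43 ± 0.037, adjusted p = 9.6e-08). GARS, for glycine, was 98.6, 104 and 94.95 FPKM with ML-792 and 130.3, 133 and 134 FPKM with DMSO. Both genes had groups that did not overlap. XPOT, the exporter of tRNA from the nucleus, fell by 0.24 on the log2 scale.

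Of the 6 effectors, 4 fell, with a median log2 difference over the 6 of -0.75. DDIT4 was 88.7, 104 and 75.9 FPKM with ML-792 and 258, 324 and 312 FPKM with DMSO, and had the lowest log2 difference of all members (log2 difference -1.73 ± 0.11, adjusted p = 1.3e-08). SESN2, a gene for a leucine-sensing inhibitor of mTORC1 signalling, was 17.99, 18.7 and 10.2 FPKM with ML-792 and 25.6, 30.4 and 28.96 FPKM with DMSO (log2 difference -0.86 ± 0.15, adjusted p = 0.00030). CHAC1, a glutathione-degrading enzyme, was 40.02, 52.8 and 56.2 FPKM with ML-792 and 61.5, 84.1 and 89.6 FPKM with DMSO (log2 difference -0.64 ± 0.14, adjusted p = 0.0024). The ML-792 and DMSO libraries were apart for these 3 genes. PPP1R15A, the phosphatase subunit that reverses eIF2alpha phosphorylation, was 71.7, 49.8 and 16.8 FPKM with ML-792 and 77.9, 71.4 and 69.5 FPKM with DMSO. Its ML-792 libraries were spread widely, library 3 far below the others, and no change was called (log2 difference -0.87 ± 0.34, adjusted p = 0.059).

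**Figure D2:**
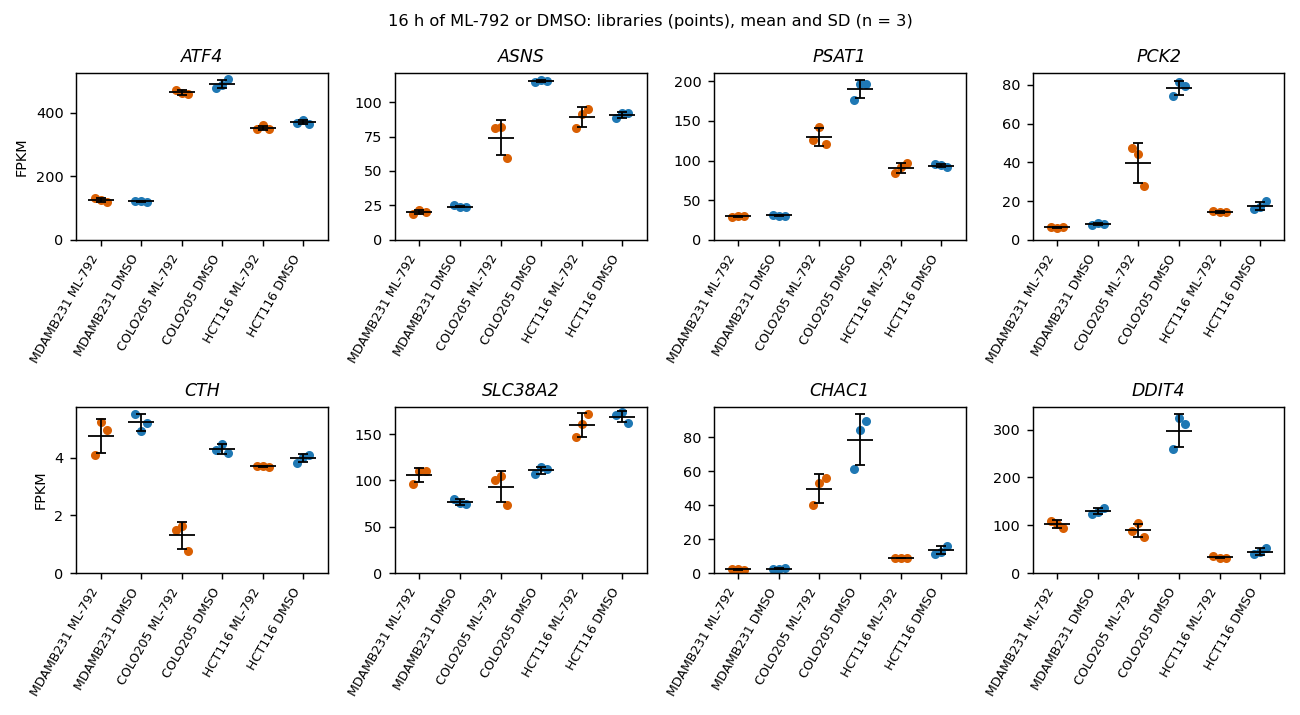
FPKM of 8 members at 16 h in each ML-792 (orange) and DMSO (blue) library of MDAMB231, COLO205 and HCT116; points are libraries, the long bar is the mean and the error bar the SD (n = 3). In COLO205 all 8 genes except ATF4 passed the test as lower with ML-792.

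ML-792 library 3 of COLO205 was the lowest of its group in 35 of the 46 genes. Its median difference from the other two libraries was -0.16 over the members and 0.01 over all genes on the log2 scale. Without it, 31 members fell and 2 rose. All 31 were among the 35; CEBPB, CBS, SLC38A2 and SARS were no longer called. The 2 that rose without it were ATF5 (0.21, adjusted p = 0.031) and DDIT3 (0.27, adjusted p = 0.0026), each with 1 ML-792 library fewer. Without it the log2 difference was -0.50 for ASNS, -1.04 for CTH, -0.77 for PCK2, -0.59 for SESN2 and -1.61 for DDIT4, all still called. DMSO library 1 of COLO205 was the lowest of its group in 32 genes, with a member median of -0.05 against its other libraries. Leaving out that DMSO library gave 33 members that fell and 0 that rose.

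**Figure D3:**
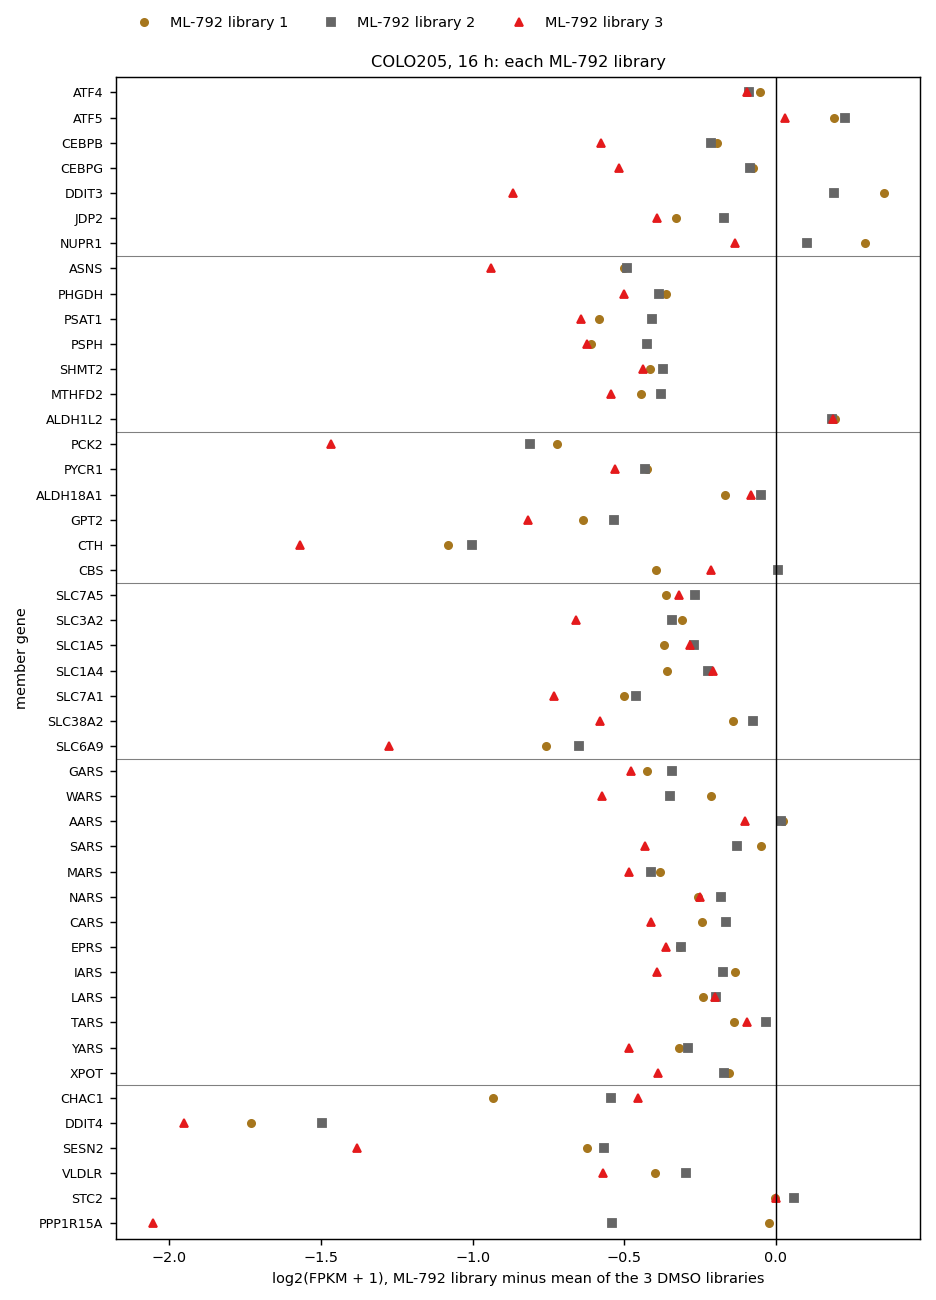
Each COLO205 ML-792 library of 16 h minus the mean of the 3 DMSO libraries, in log2(FPKM + 1) on the x axis, for the 46 genes on the y axis; library 1 is a circle, library 2 a square and library 3 a triangle. Most points lie left of 0, and library 3 lies furthest left for DDIT3, PPP1R15A, PCK2, SESN2 and SLC6A9.

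In HCT116, 16 h of ML-792 changed few of the genes on the deposited scale. Of 45 tested members, 4 fell and 0 rose, where 14.7% of all genes were called, 8.32% higher and 6.42% lower; the member median was -0.07 and that of all genes 0.00. Scaled by the median of ratios 10 fell, and scaled to equal totals 11 fell. The share of all genes that fell under these scalings was not counted. The 4 on the deposited scale were CHAC1, DDIT4, JDP2 and SLC1A4. CHAC1 was 8.88, 9.004 and 8.73 FPKM with ML-792 and 11.6, 12.6 and 16.2 FPKM with DMSO (log2 difference -0.54 ± 0.14, adjusted p = 0.019). DDIT4 was 35.2, 32.1 and 31.9 FPKM with ML-792 and 39.5, 43.6 and 52.5 FPKM with DMSO (log2 difference -0.43 ± 0.11, adjusted p = 0.018). In both genes the ML-792 libraries lay close together below all DMSO libraries, and DMSO library 3 was the highest. JDP2 was 3.36, 2.88 and 2.89 FPKM with ML-792 and 3.53, 3.89 and 4.43 FPKM with DMSO (log2 difference -0.29 ± 0.074, adjusted p = 0.014), and SLC1A4 fell by 0.20 on the log2 scale. ATF4 was 350.0, 361 and 349.7 FPKM with ML-792 and 369, 378 and 364 FPKM with DMSO, apart but not called (log2 difference -0.067 ± 0.037, adjusted p = 0.24). ASNS (-0.028) and DDIT3 (0.12) were not called either. Groups were apart in 23 of the 45 tested members, and the share of all genes with groups apart was not counted. All 4 calls rest on few libraries: leaving out ML-792 library 2, ML-792 library 3 or DMSO library 3 gave 0 called members, and leaving out ML-792 library 1 gave 8.

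In MDAMB231, ML-792 raised 4 members and lowered 5 of 45 at 16 h, or 8.89% and 11.1%. These shares were near those of all genes, of which 16.9% were called, 8.38% higher and 8.48% lower. SLC38A2, the sodium-coupled neutral amino acid transporter SNAT2, rose: it was 96.6, 111 and 110.3 FPKM with ML-792 and 80.2, 75.97 and 74.5 FPKM with DMSO (log2 difference 0.45 ± 0.098, adjusted p = 0.0036). PHGDH rose at a low level, with 2.74, 2.22 and 2.85 FPKM in ML-792 and 1.95, 1.71 and 1.799 FPKM in DMSO libraries (log2 difference 0.35 ± 0.067, adjusted p = 0.0011). In both genes all ML-792 libraries were above all DMSO libraries. CEBPB was 11.4, 10.1 and 9.51 FPKM with ML-792 and 7.07, 7.88 and 8.76 FPKM with DMSO (log2 difference 0.35 ± 0.10, adjusted p = 0.026), and ALDH18A1 rose by 0.13 on the log2 scale. SLC7A1 was 18.7, 18.3 and 18.6 FPKM with ML-792 and 23.6, 23.7 and 23.3 FPKM with DMSO (log2 difference -0.33 ± 0.054, adjusted p = 0.00034). GPT2, XPOT, MTHFD2 and YARS, the tyrosine enzyme, also fell, with log2 differences of -0.20, -0.19, -0.18 and -0.17. ATF4 was 131, 127 and 119 FPKM with ML-792 and 122, 124 and 121 FPKM with DMSO, which overlapped. ASNS (18.9, 21.8 and 20.4 FPKM with ML-792, 24.98, 23.8 and 23.8 FPKM with DMSO; log2 difference -0.24 ± 0.090, adjusted p = 0.080) and DDIT3 (log2 difference 0.35 ± 0.21, adjusted p = 0.32) were apart between groups but not called. These SEs were estimated over all 18 libraries of 16 h, so they also carry the spread of the other lines. Groups were apart in 23 of the 45 tested members, and the share of all genes with groups apart was not counted. A fit of only the MDAMB231 groups called 14 of 43 tested members, 6 higher and 8 lower. The share of all genes called in that fit was not counted. Leaving out ML-792 library 2 or any 1 DMSO library left 5 members called in place of 9. The calls of XPOT, GPT2 and ALDH18A1 were lost in 7, 6 and 6 of 13 other settings.

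Set side by side at 16 h, 0 members fell in all 3 lines. Of the 35 that fell in COLO205, 23 were called in neither other line and 4 also fell in HCT116. A further 5 also fell in MDAMB231 (MTHFD2, GPT2, SLC7A1, YARS and XPOT) and 3 rose there (CEBPB, PHGDH and SLC38A2). The share of all genes with each pattern was not counted. These counts depend on the scaling and on the libraries fitted: 10 or 11 members fell in HCT116 with other scalings, and 14 were called with only the MDAMB231 groups fitted. The difference between lines in the effect of ML-792 was tested as an interaction. ML-792 had a lower log2 effect in COLO205 than in HCT116 on 26 of 45 members and a higher one on 0, where 19.4% of all genes differed, 9.66% higher and 9.75% lower. Among the largest were DDIT4 (log2 difference -1.29 ± 0.16, adjusted p = 3.9e-05), CTH (log2 difference -1.13 ± 0.15, adjusted p = 3.9e-05) and SLC6A9 (log2 difference -0.95 ± 0.17, adjusted p = 0.00068), and SESN2 differed by -0.84 ± 0.21 and ASNS by -0.62 ± 0.13. No difference was called for the effect on ATF4 (log2 difference -0.011 ± 0.052, adjusted p = 0.93). ML-792 had a higher effect in MDAMB231 than in COLO205 on 27 members and a lower one on 0, where 26% of all genes differed, 12% higher and 14% lower. DDIT4 (1.39 ± 0.16), CTH (1.1 ± 0.15), SESN2 (0.82 ± 0.21) and PHGDH (0.77 ± 0.094) led these. Between MDAMB231 and HCT116, 3 members differed where 10.8% of all genes did, 4.93% higher and 5.84% lower: SLC38A2 (log2 difference 0.53 ± 0.14, adjusted p = 0.019), PHGDH (log2 difference 0.47 ± 0.094, adjusted p = 0.0032) and SLC7A5 (log2 difference 0.36 ± 0.092, adjusted p = 0.016), each higher in MDAMB231. The interactions share libraries, so they are not independent of one another.

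**Figure D4:**
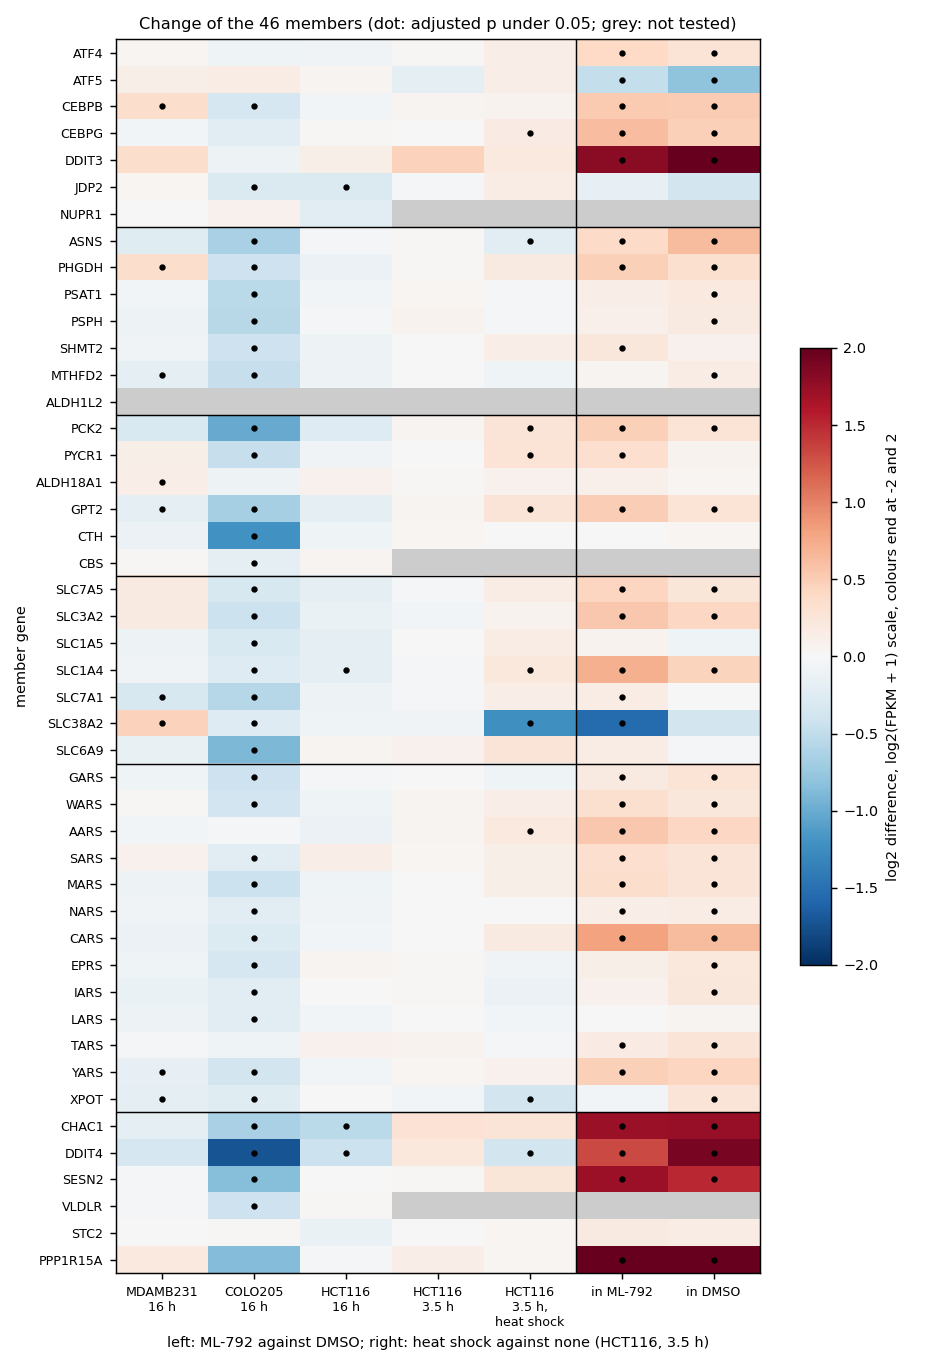
Heat map of log2 differences on the log2(FPKM + 1) scale for the 46 genes (rows) in 7 comparisons (columns); red is higher and blue lower in ML-792 than in DMSO (first 5 columns) or in heat shocked than in unshocked cells (last 2 columns), a dot marks an adjusted p under 0.05 and grey was not tested. COLO205 carries 35 dots, all on genes that fell, and the heat shock columns carry 29 with ML-792 and 31 with DMSO.

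At 3.5 h without heat shock, ML-792 gave 0 called members of 42 in HCT116 by limma, where 1.21% of all 12191 genes were called, 1.02% higher and 0.189% lower; 2 members had an unadjusted p under 0.05. One was DDIT3, at 13.95, 15.3 and 14.998 FPKM with ML-792 and 10.6, 10.98 and 9.85 FPKM with DMSO (log2 difference 0.46 ± 0.13, adjusted p = 0.20). The other was ATF5, at 15.1, 14.8 and 13.6 FPKM with ML-792 and 17.2, 16.7 and 16.4 FPKM with DMSO (log2 difference -0.20 ± 0.083, adjusted p = 0.58). Neither gene's groups overlapped. Groups were apart in 14 of the 42 members, and the share of all genes with groups apart was not counted. ATF4 was 278, 291 and 286 FPKM with ML-792 and 276, 288 and 279 FPKM with DMSO, overlapping. CHAC1 was 3.17, 3.295 and 3.14 FPKM with ML-792 and 2.56, 2.52 and 2.26 FPKM with DMSO, and DDIT4 was 11.8, 12.6 and 13.2 FPKM with ML-792 and 10.8, 10.52 and 10.9 FPKM with DMSO. ML-792 libraries were above all DMSO libraries in both. A fit on these 6 libraries alone, without the more variable heat shocked ones, called 4 members: DDIT3, CHAC1 and DDIT4 higher and ATF5 lower. The share of all genes called in that fit was not counted, and the 1.21% does not apply to it. JDP2 was uneven, with 1 library of each group near 4 FPKM: 1.51, 4.12 and 1.72 FPKM with ML-792 and 1.66, 1.74 and 4.27 FPKM with DMSO.

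The effect of ML-792 on HCT116 was lower at 16 h than at 3.5 h for 3 of 42 members, where 2.4% of all genes differed, 1.12% higher and 1.28% lower. CHAC1 differed by log2 difference -0.82 ± 0.12, adjusted p = 0.0020, DDIT4 by log2 difference -0.64 ± 0.11, adjusted p = 0.010 and DDIT3 by log2 difference -0.34 ± 0.078, adjusted p = 0.037. CHAC1 and DDIT4 had ML-792 libraries below DMSO libraries at 16 h and above them at 3.5 h. Each time had its own DMSO libraries, and those of 16 h had higher CHAC1 and DDIT4 levels than those of 3.5 h. The libraries of the 2 times also bear sample identifiers from different number blocks, so that time and block cannot be told apart. The 2 times also differed in summed FPKM and in the rough depth estimate, whose part in the result was not tested.

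Heat shock raised most of the genes in HCT116 on the deposited scale, but not with equal summed FPKM. In ML-792, 27 of 42 members rose and 2 fell, where 61.7% of all genes were called, 39.3% higher and 22.3% lower; the median log2 difference was 0.32 over members and 0.10 over all genes. In DMSO, 30 rose and 1 fell, where 49.5% of all genes were called, 28.9% higher and 20.6% lower, with medians of 0.25 over members and 0.05 over all genes. Scaling all libraries to equal summed FPKM moved the median of all genes to -0.15 in ML-792 and -0.16 in DMSO and gave 15 higher and 13 lower members in ML-792 and 13 higher and 7 lower in DMSO. The shares of all genes called under other scalings were not counted. Rises called with each of 3 scalings numbered 15 in ML-792 and 13 in DMSO. With both treatments these held CEBPB, CEBPG, DDIT3, SLC3A2, SLC1A4, AARS, CARS, YARS, CHAC1, DDIT4, SESN2 and PPP1R15A.

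The stress effectors and DDIT3 had the largest rises. PPP1R15A was 73.4, 92.6 and 73.4 FPKM in heat shocked and 15.8, 17.02 and 15.3 FPKM in unshocked ML-792 cells (log2 difference 2.24 ± 0.088, adjusted p = 6.1e-10). In DMSO it was 72.6, 75.4 and 85.2 FPKM with heat shock and 14.2, 15.02 and 14.3 FPKM without (log2 difference 2.34 ± 0.088, adjusted p = 3.8e-10). DDIT3 was 47.1, 64.3 and 51.1 FPKM with heat shock in ML-792 and 37.1, 50.3 and 55.5 FPKM with heat shock in DMSO, all above the unshocked libraries given earlier (log2 differences 1.8 and 2.07). SESN2 was 15.2, 20.6 and 19.4 FPKM with heat shock and 5.05, 4.67 and 4.92 FPKM without it in ML-792. In DMSO it was 13.2, 16.1 and 17.02 FPKM with heat shock and 4.85, 4.74 and 4.67 FPKM without it. Heat shocked and unshocked libraries did not overlap in these 3 genes. CHAC1 rose by 1.72 in ML-792 and 1.74 in DMSO, and DDIT4 by 1.32 in ML-792 and 1.89 in DMSO, on the log2 scale. STC2 was the effector with no call with either treatment.

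ATF4 rose less. With heat shock it was 341, 420.2 and 367 FPKM in ML-792 and 284, 353 and 394 FPKM in DMSO; without, 278, 291 and 286 FPKM in ML-792 and 276, 288 and 279 FPKM in DMSO. The groups were apart in ML-792 (log2 difference 0.39 ± 0.10, adjusted p = 0.0058) and overlapped in DMSO (log2 difference 0.28 ± 0.10, adjusted p = 0.043). The overlap in DMSO came from heat shocked library 1, at 284 FPKM. The DMSO call was lost in 9 of 13 other settings and that in ML-792 in 1 of 13. ATF5, a factor close to ATF4, fell: it was 9.95, 11.5 and 9.17 FPKM with heat shock and 15.1, 14.8 and 13.6 FPKM without in ML-792 (log2 difference -0.47 ± 0.083, adjusted p = 0.00039). In DMSO, ATF5 was 8.39, 8.901 and 10.3 FPKM with heat shock and 17.2, 16.7 and 16.4 FPKM without (log2 difference -0.81 ± 0.083, adjusted p = 6.2e-06). It fell with both treatments under each scaling.

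Of the metabolic genes tested, ASNS rose by 0.39 in ML-792 and 0.63 in DMSO on the log2 scale; its ML-792 call was lost with equal totals. GPT2 rose by 0.50 and PCK2 by 0.47 in ML-792. Of the synthetase and export genes, 9 of 13 rose in ML-792 and 12 of 13 in DMSO, and LARS was called in neither, where 39.3% of all genes rose in ML-792 and 28.9% in DMSO. With equal totals 3 of the 13, AARS, CARS and YARS, rose with each treatment, and 5 fell in ML-792 and 0 in DMSO. CARS, for cysteine, was 59.5, 68.1 and 57.7 FPKM with heat shock and 35.4, 34.6 and 34.3 FPKM without in ML-792. In DMSO it was 51.1, 53.2 and 59.3 FPKM with heat shock and 34.7, 34.4 and 34.6 FPKM without. Heat shocked libraries were higher throughout, with log2 differences of 0.81 in ML-792 and 0.64 in DMSO. Of the 7 transporters, 4 rose and 1 fell in ML-792 and 3 rose in DMSO; with equal totals 2 rose and 2 fell in ML-792, and 2 rose and 3 fell in DMSO.

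SLC38A2 was the transporter that fell. It was 47.9, 43.5 and 79.3 FPKM with heat shock and 159.9, 161 and 162 FPKM without in ML-792 (log2 difference -1.53 ± 0.16, adjusted p = 6.7e-06). In DMSO it was 131, 144 and 117 FPKM with heat shock and 166, 171 and 171 FPKM without, apart but not called (log2 difference -0.37 ± 0.16, adjusted p = 0.074). Heat shocked and unshocked DMSO groups were apart in 32 of 42 members, and the share of all genes with groups apart was not counted. The effect of heat shock was lower in ML-792 than in DMSO for SLC38A2 (log2 difference -1.16 ± 0.23, adjusted p = 0.023) and DDIT4 (log2 difference -0.57 ± 0.16, adjusted p = 0.049), 2 of 42 members, where 6.41% of all genes differed, 2.48% higher and 3.93% lower. SLC38A2 lost this call in 9 of 18 other settings and DDIT4 in 12 of 18. With no filter on low values, or without DMSO heat shock library 2 or any 1 unshocked library, 0 members were called. It was 1 without ML-792 heat shock library 1 or 2 and 5 without ML-792 heat shock library 3.

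Within heat shocked cells, ML-792 against DMSO gave 6 higher and 4 lower of 42 members, so that 23.8% were called. This was a smaller share than that of all genes, of which 33.5% were called, 18.4% higher and 15.1% lower. SLC38A2 was the largest, log2 difference -1.23 ± 0.16, adjusted p = 0.00088; all 3 ML-792 libraries, although ML-792 library 3 was well above the other two, lay below all DMSO libraries. XPOT was 49.03, 42.7 and 58.9 FPKM in ML-792 and 64.1, 69.1 and 60.5 FPKM in DMSO (log2 difference -0.37 ± 0.092, adjusted p = 0.012), and it did not overlap. GPT2 was 15.8, 17.7 and 15.8 FPKM in ML-792 and 12.7, 13.3 and 14.6 FPKM in DMSO (log2 difference 0.27 ± 0.064, adjusted p = 0.010), apart by a narrow margin. SLC1A4 (0.21), AARS (0.19) and CEBPG (0.16) also rose on the log2 scale. PYCR1, PCK2, ASNS and DDIT4 were called with overlapping groups (log2 differences 0.28, 0.26, -0.23 and -0.37). ATF4 (0.14) and DDIT3 (0.19) were not called. Scaling by the median of ratios gave 3 higher and 7 lower members, and equal totals gave 2 higher and 5 lower. It was 0 higher and 1 lower when only these 6 libraries were fitted, and 4 higher and 2 lower with no filter. The shares of all genes called under these other settings were not counted. GPT2 and PYCR1 rose and SLC38A2, XPOT, ASNS and DDIT4 fell under each of 3 scalings. Without DMSO heat shock library 2 the count was 2, and without ML-792 heat shock library 2 it was 5. DMSO heat shock library 1 was the lowest of its group in 34 of the 46 genes. Its median log2 difference from the other libraries of its group was -0.12 over the members and -0.02 over all genes. Without DMSO heat shock library 1 the count was 7.

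**Figure D5:**
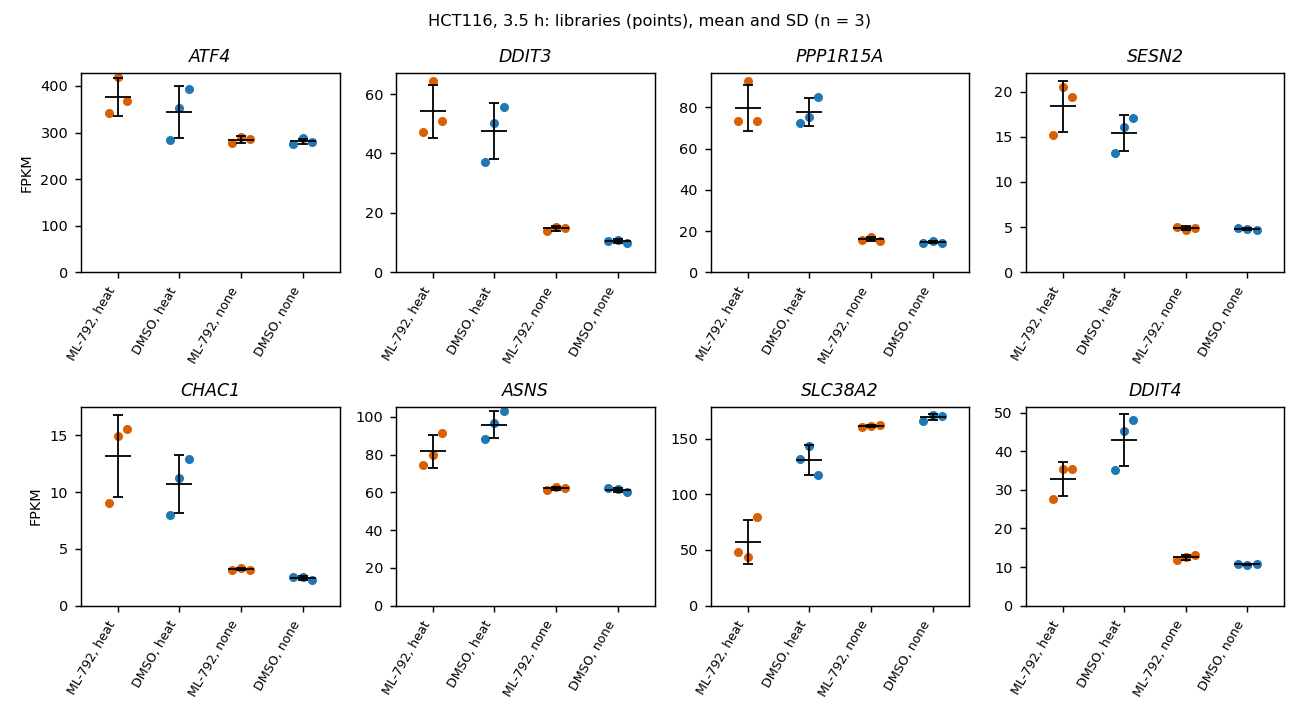
FPKM of 8 members in HCT116 at 3.5 h, in heat shocked ML-792 and DMSO cells and then unshocked ML-792 and DMSO cells; points are libraries, the long bar is the mean and the error bar the SD (n = 3). DDIT3, PPP1R15A, SESN2, CHAC1 and DDIT4 stand higher in all heat shocked libraries, and SLC38A2 is lowest in heat shocked ML-792 cells.

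Genes of the pathway outside the 46 were taken from 5 further lists. The lists share genes: RARS, CARS2 and LARS2 each stand among the other ATF4 targets and in a synthetase list, and are counted in both. With ML-792 in COLO205, 11 of 23 other ATF4 target genes fell and 4 rose, where 17.7% of all genes fell and 19.4% rose, so that the share that rose was near that of all genes. ATF3, a stress-induced factor, was 10.7, 9.78 and 2.54 FPKM with ML-792 and 14.3, 16.3 and 16.3 FPKM with DMSO (log2 difference -1.12 ± 0.31, adjusted p = 0.012), and TRIB3, a pseudokinase that inhibits ATF4, was 199, 185 and 81.2 FPKM with ML-792 and 253, 271 and 261 FPKM with DMSO (log2 difference -0.85 ± 0.23, adjusted p = 0.011). Both had their lowest value in ML-792 library 3. SQSTM1, an autophagy receptor gene, rose (log2 difference 0.94 ± 0.050, adjusted p = 2.0e-10). The same list gave 4 higher and 2 lower in MDAMB231, where 8.38% of all genes were higher and 8.48% lower, and 3 higher and 0 lower in HCT116 at 16 h, where 8.32% were higher and 6.42% lower. GDF15, a secreted stress cytokine gene, was 37.2, 31.8 and 27.4 FPKM with ML-792 and 4.17, 3.96 and 5.28 FPKM with DMSO in MDAMB231 (log2 difference 2.6 ± 0.25, adjusted p = 5.8e-06). It was also the 1 called gene of 21 in HCT116 at 3.5 h, where 1.21% of all genes were called, at 42.2, 43.01 and 43.1 FPKM with ML-792 and 22.4, 19.2 and 19.5 FPKM with DMSO (log2 difference 1.04 ± 0.11, adjusted p = 0.00029). GDF15 groups did not overlap in either.

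The endoplasmic reticulum unfolded protein response list moved the other way from the members in COLO205: 9 of 12 rose with ML-792 and 0 fell, where 19.4% of all genes rose. HSPA5, the chaperone BiP, was 663, 708 and 797 FPKM with ML-792 and 456, 464 and 491 FPKM with DMSO (log2 difference 0.62 ± 0.051, adjusted p = 5.8e-08), with no overlap. In MDAMB231 and in HCT116 at 16 h, 2 of the 12 rose in each, where 8.38% and 8.32% of all genes did, and 1, XBP1, rose at 3.5 h (log2 difference 0.33 ± 0.070, adjusted p = 0.039). Of 13 eIF2alpha kinases and regulators, 3 rose and 4 fell in COLO205, 2 rose and 2 fell in MDAMB231, and 2 rose in HCT116 at 16 h. Of all genes, 19.4% rose and 17.7% fell in COLO205, 8.38% rose and 8.48% fell in MDAMB231, and 8.32% rose and 6.42% fell in HCT116, and the counts of the 13 were not tested against those shares. EIF2AK3, the kinase PERK, rose in each of the 3 lines (log2 differences 0.17 in MDAMB231, 0.28 in COLO205 and 0.28 in HCT116). The remaining lists were 8 other cytosolic synthetases, with 3 lower in COLO205 and 1 lower in each of MDAMB231 and HCT116 at 16 h, and 17 mitochondrial synthetases. Of these 17, 7 fell and 1 rose in COLO205, 1 fell and 1 rose in MDAMB231, and 2 fell and 1 rose in HCT116 at 16 h; in MDAMB231 and HCT116 these counts lie near the shares of all genes. VARS, for valine, had the largest fall of the cytosolic list in COLO205 (log2 difference -0.66 ± 0.081, adjusted p = 7.0e-06). At 3.5 h without heat shock these 3 lists had 0 called genes by limma.

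The counts of these lists with heat shock are on the deposited scale and were not repeated with other scalings, which changed those of the members. With heat shock, 9 of the 12 unfolded protein response genes rose in ML-792 and 11 of 12 in DMSO, and 0 fell. Of all genes, 39.3% rose and 22.3% fell in ML-792, and 28.9% rose and 20.6% fell in DMSO. HERPUD1 rose by 1.88 in ML-792 and 2.22 in DMSO on the log2 scale. Among other ATF4 targets, 9 rose and 6 fell of 21 in ML-792, and 4 rose and 4 fell in DMSO. ATF3 was 71.4, 92.7 and 87.7 FPKM with heat shock and 9.12, 9.52 and 10.2 FPKM without in ML-792. In DMSO it was 83.8, 102 and 102 FPKM with heat shock and 6.99, 8.53 and 7.48 FPKM without; the log2 difference of 3.48 in DMSO exceeded that of any member. The kinase and regulator list gave 4 higher and 2 lower with each treatment, the other cytosolic synthetases 3 higher in each, and the mitochondrial synthetases 5 higher and 4 lower in ML-792 and 5 higher and 5 lower in DMSO, counts at or near the shares of all genes. Within heat shocked cells, ML-792 against DMSO gave 5 higher and 3 lower other targets, 1 higher and 4 lower kinases and regulators, 3 higher and 2 lower unfolded protein response genes, 1 higher and 2 lower cytosolic synthetases, and 3 higher and 2 lower mitochondrial synthetases, where 18.4% of all genes were higher and 15.1% lower.

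The calls were also counted by promoter match. In COLO205, ML-792 lowered 12 of 15 members with a match and 17 of 23 members whose windows had none, with median log2 differences of -0.30 and -0.33, where 17.7% of all genes fell. With heat shock, 12 of 15 members with a match and 11 of 21 without rose in ML-792, against 39.3% of all genes; in DMSO 12 of 15 and 15 of 21 rose, against 28.9% of all genes. In COLO205 against HCT116 in vehicle, 15 of 15 with a match and 17 of 23 without were higher, against 39.4% of all genes. These counts are on the deposited scale and were not repeated with other scalings. They are a description and were not tested.

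Some values carry limits from gene structure. How fragments were assigned to genes, and whether by strand, is not stated in the labels. In the GENCODE v29 annotation DDIT4 shares 48.5% of its exon bases with the antisense gene DDIT4-AS1, MTHFD2 29.7% with SLC4A5, SLC1A5 23.4% with an antisense transcript, ATF5 21.9% with NUP62 and PYCR1 19.6% with an antisense transcript. If strand was not used, reads of such pairs cannot be told apart. ASNS shares 79.7% of its exon bases with a transcript of the same strand. ATF4, PSPH, SLC7A5 and CBS have near-identical copies or pseudogenes in the genome, and their levels are uncertain to that extent.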

How the data were processed

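Messenger RNA of 30 libraries was prepared with a TruSeq stranded kit and sequenced on a HiSeq as 50-base paired reads, per the labels' protocols. The authors deposited 1 table of 30373 genes with all 30 libraries, taken here as FPKM. Neither the file header nor the labels name this unit, so it was checked on the values: column totals differed between libraries (461422 to 732251), unlike TPM, and over 2824 low genes the smallest value above 0 had a median of 0.0267 in the shortest genes (median exon length 968 bases) and 0.00624 in the longest (6569.5 bases) of 4 equal bins (Spearman's rho -0.60 across genes, which are not independent), so values are per length. The submitters' processing notes name DESeq2 1.10.1, with no role; the aligner, build and annotation were not given in the sources used here. No counts are held, so no count test was run and depth is unknown.

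FPKM values were analysed as log2(FPKM + 1) from the deposited table with limma 3.58.1 in R 4.3.3 (empirical Bayes with trend and robust options), on genes with at least 1 FPKM in 3 libraries of a fit. Fold changes on this scale understate changes of low genes. There were 3 fits: 18 libraries at 16 h (14251 genes), 12 of HCT116 at 3.5 h (12191 genes) and 12 unshocked of HCT116 at both times (12462 genes). They gave 10 comparisons of 2 groups and 5 interactions; p-values were adjusted over all genes of a fit by Benjamini-Hochberg, two-sided, with 0.05 as threshold. The script was tested on simulated data. Replicates are numbered in accession order, which only names them; no pair held identical values and the lowest correlation within a group was 0.993.

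The members, their roles and the 5 further lists (other ATF4 targets, eIF2alpha kinases and regulators, other cytosolic and mitochondrial tRNA synthetases, unfolded protein response) were chosen with earlier results of these data known. Genes were named by this rule: of called members whose groups do not overlap, up to 12 rises and 12 falls for 2 groups and up to 4 of each for an interaction, besides ATF4, ASNS and DDIT3; others are named by role, with values. Promoters are RefSeq windows of GRCh38.p14; exon overlaps are from GENCODE v29. Other settings tried were pseudocounts of 0.1 and 5, a filter at 5 FPKM, no filter, 2 other scalings, fits of only the compared groups and leaving out each library.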

Additional observations from a re-analysis of the deposited data

Results flagged for a closer look

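For 16 values the effect of ML-792 or of heat shock differed between lines, times or treatments by limma's test of the difference itself; all 16 are differences of log2 differences, and the libraries behind them are given with the results. Between COLO205 and HCT116 the effect of ML-792 at 16 h differed by -1.29 for DDIT4, -1.13 for CTH, -0.95 for SLC6A9 and -0.84 for SESN2. Between MDAMB231 and COLO205 it differed by 1.39 for DDIT4, 1.1 for CTH, 0.82 for SESN2 and 0.77 for PHGDH. Each of these 8 values passed in 19 of 19 other settings. Between MDAMB231 and HCT116 it differed by 0.53 for SLC38A2, 0.47 for PHGDH and 0.36 for SLC7A5, which also passed in each of 19.

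In HCT116 the effect of ML-792 at 16 h minus that at 3.5 h was -0.82 for CHAC1 and -0.64 for DDIT4, each passing in 18 of 18 other settings, and -0.34 for DDIT3, which lost its call in 10 of 18. The effect of heat shock in ML-792 minus that in DMSO was -1.16 for SLC38A2 and -0.57 for DDIT4, lost in 9 and 12 of 18 settings.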

How the results depend on the processing

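The other settings were pseudocounts of 0.1 and 5, a filter at 5 FPKM, no filter, median-of-ratios scaling, equal summed FPKM, a fit of only the compared groups, and leaving out each library; 9224 values kept direction and side of the threshold, 327 lost their call, 134 gained one and 22 turned round, where a change of sign with no call in either setting was not counted as a turn. No paired analysis was possible because libraries carry no replicate number in their labels that groups could share. The fit of only the compared groups was not run for the time and heat shock interactions, whose fits hold only those groups. Counts of called members that moved by more than 1.5 times were: for ML-792 in HCT116 at 16 h, 10 when scaled by the median of ratios and 11 by equal totals; in MDAMB231, 14 with only its groups fitted; at 3.5 h, 4 with only its groups; in heat shocked cells, 6 with no filter and 1 with only its groups; for heat shock in DMSO, 20 with equal totals; for MDAMB231 minus HCT116, 5 with median-of-ratios scaling and 5 with only its groups; and for heat shock by ML-792, 1 with a pseudocount of 5, 0 with no filter and 1 with equal totals. Shares of all genes called were not counted under these settings, and the cause was not tested. Leaving out 1 library gave 0 to 8 called members for ML-792 in HCT116 at 16 h, 31 to 36 in COLO205, 5 to 8 in MDAMB231, 0 to 0 at 3.5 h, 2 to 15 in heat shocked cells, 26 to 29 for heat shock in ML-792 and 24 to 31 in DMSO. In vehicle it gave 40 to 41 for COLO205 against HCT116, 38 to 40 for MDAMB231 against HCT116 and 44 to 44 for MDAMB231 against COLO205. For the interactions it gave 20 to 27 for COLO205 minus HCT116, 3 to 5 for MDAMB231 minus HCT116, 22 to 29 for MDAMB231 minus COLO205, 2 to 7 for time and 0 to 5 for heat shock by ML-792. The spread was pooled over all groups of a fit in every comparison, also where a group was left with 2 libraries.

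The values that turned round were DDIT3 in COLO205, at 0.27 without ML-792 library 3 (-0.34 without ML-792 library 1), and heat shock effects with equal totals, a scaling that lowered the median heat shock effect of all genes to -0.15 in ML-792 and -0.16 in DMSO. In ML-792 these were PSAT1 -0.17, PSPH -0.19, SHMT2 -0.076, MTHFD2 -0.24, ALDH18A1 -0.19, SLC1A5 -0.22, SLC7A1 -0.15, GARS -0.11, NARS -0.16, IARS -0.22 and TARS -0.13. In DMSO they were PSAT1 -0.038, PSPH -0.045, SHMT2 -0.15, MTHFD2 -0.094, PYCR1 -0.17, ALDH18A1 -0.19, WARS -0.0033, NARS -0.095, EPRS -0.028 and IARS -0.016. Without read counts, no counting error can be given for members at low FPKM such as CBS, NUPR1, CTH and ALDH1L2.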
